A study of Homo sapiens and Mus musculus with 99 samples.

Results

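The MYC network was followed in human and mouse lung epithelial cells exposed to mould extract and pore-forming proteins. MYC, its dimer partner MAX and the MAX-binding repressors MXD1, MXD4, MXI1 and MNT were followed in 51 libraries of human lung cancer lines, and mouse Myc and Mxd1 in 48 libraries of mouse lung epithelial cells. These 8 genes were 6 of 57820 human gene IDs, taken by symbol, and 2 of 55401 mouse gene IDs, taken by identifier. They were chosen with earlier results of these data known, among them a MYC level that was higher after stimulation in one human line and not in the other. The changes against the untreated control, and the difference of those changes between the lines, are therefore given as a description with no test. Tests are given for comparisons between treated groups, for the untreated lines, and for genes outside the 8. For the 8 members these comparisons share libraries with the changes known at the choice, so their p-values are not independent of it.

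The study asked how airway epithelial cells respond when proteins that perforate the cell membrane act on them. NCI-H1437 and NCI-H292, both established non-small cell lung cancer lines of epithelial origin, were exposed for 4 hours. Mice were dosed intranasally and their lung epithelial cells collected after 6 hours. DPBS, a buffered saline, was the mock control in every experiment. ALT is extract of the mould Alternaria alternata; WT ALT is extract of the unmodified mould, and aegs KO ALT and aegl KO ALT are extracts labelled with a knockout of aegs or aegl. Aeg-S and Aeg-L are the proteins named after those genes, given alone or together as Aeg-S/L. H1437-1 had DPBS, ALT, and ALT with an agent labelled Tra, a MEK inhibitor. H1437-2 had DPBS, Aeg-S, Aeg-L, Aeg-S/L, and Aeg-S/L with Tra. H1437-3 and H292-2 had DPBS, Aeg-S/L, and Aeg-S/L with BAPTA-AM, which binds calcium inside cells, or with EGTA, which binds calcium outside them. H1437-4 and H292-1 had DPBS and the 3 extracts. No group had an inhibitor or chelator without the stimulus, so what these agents do alone was not measured. In mice, Lung1 had DPBS and ALT, Lung2 DPBS, Aeg-S, Aeg-L and Aeg-S/L, and Lung3 DPBS and the 3 extracts, with no genotype given in the labels for these. Lung4 (wild type) and IL33KO2 (IL-33 KO) had DPBS, lysenin, PlyA2EryB and LSL, IL33KO1 (IL-33 KO) had DPBS, ALT and Aeg-S/L, and Rag2gc (Rag2-/-; gc-/-) had DPBS and Aeg-S/L. Lysenin is a pore-forming toxin of an earthworm. Mouse age, sex and pooling were not given in the sources used here.

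Groups held 2 libraries, or 3 in H1437-1 and Lung1, and the series text calls them biological replicates without saying whether they came from separate cultures or animals. If they did not, the p-values measure only the spread between libraries. Library totals ran from 32.4 to 53.2 M assigned reads in the human lines and from 29.6 to 66.3 M in the mouse cells. All 6 epithelial markers were high in all 51 human libraries, EPCAM at 228 to 518 CPM (counts per M assigned reads), whereas none of 5 blood markers passed 1.03 CPM. Among 3 fibroblast markers COL1A1 reached 218 CPM, while COL1A2 and PDGFRA stayed at or below 0.384 CPM. Of the endothelial markers, CDH5 reached 75.3 CPM and VWF 2.85 CPM. In the mouse cells, markers were not analysed here, because the gene IDs were not paired with names. In such bulk samples fewer cells of a type and less RNA per cell cannot be told apart.

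MYC is a transcription factor that binds DNA as a pair with MAX, most strongly at the hexamer CACGTG, called the E-box, and raises genes of ribosome production, metabolism and growth. MXD1, MXD4, MXI1 and MNT also pair with MAX, bind the same hexamer and recruit SIN3 co-repressors, so that they oppose MYC. MYC messenger RNA is short-lived, and MYC is a classic early gene of growth factor and MEK-ERK signalling. MXD1 is known for its rise as cells leave the cell cycle and differentiate.

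The promoters of MXD4, MNT and MXD1, repressors of 1 family, are shown to compare windows with and without the hexamer. In stimulated NCI-H292 the MXD4, MNT and MAX levels were lower, and MXD1 was not. Each run is the 250 bases before the gene start from RefSeq on GRCh38.p14, 5′ to 3′ on the gene's strand, and capitals mark CACGTG. The windows are chr4:2262110-2262359 (minus strand), chr17:2401061-2401310 (minus strand) and chr2:69914859-69915108 (plus strand), in this order.
MXD4: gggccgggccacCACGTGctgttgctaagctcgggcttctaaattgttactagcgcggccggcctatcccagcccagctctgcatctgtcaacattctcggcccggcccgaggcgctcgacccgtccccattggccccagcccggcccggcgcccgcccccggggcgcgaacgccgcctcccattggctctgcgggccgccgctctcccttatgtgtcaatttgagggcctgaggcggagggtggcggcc
MNT: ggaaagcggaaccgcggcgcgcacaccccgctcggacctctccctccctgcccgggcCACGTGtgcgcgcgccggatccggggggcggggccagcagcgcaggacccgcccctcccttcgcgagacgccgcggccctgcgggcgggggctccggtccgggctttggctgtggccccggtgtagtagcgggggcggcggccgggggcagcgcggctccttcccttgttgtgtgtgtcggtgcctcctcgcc
MXD1: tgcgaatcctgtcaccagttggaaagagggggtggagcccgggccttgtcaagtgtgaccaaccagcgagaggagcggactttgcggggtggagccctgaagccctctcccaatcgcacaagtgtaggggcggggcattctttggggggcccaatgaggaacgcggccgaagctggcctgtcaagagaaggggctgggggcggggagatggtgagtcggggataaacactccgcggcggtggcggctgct
An E-box stood 238 bases before the MXD4 start and 193 bases before the MNT start. No CACGTG was found in the MXD1 window, in the 3 MXI1 windows or in both MAX windows, so genes that were lower in NCI-H292 stood on both sides of this division. CACGTG reads the same on both strands, and it occurred in 6.34% of 35116 RefSeq windows of this length and in 7.73% of 27305 genes. Thus 2 of 5 members with a window held it. A match is a stretch of letters and no evidence of binding.

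Before any stimulus the lines differed in all 6 members. MYC, at chr8:128747680-128753674 on hg19, had 302 ± 9.23 CPM (SD, n = 2) in H1437-4 and 37.5 ± 0.567 CPM (SD, n = 2) in H292-1. Over the 4 NCI-H1437 experiments the DPBS libraries lay between 221 and 333 CPM, and over both NCI-H292 experiments between 37.1 and 45 CPM, with no overlap. With the DPBS libraries of an experiment summed to 1 sample, the log2 difference of MYC, NCI-H292 minus NCI-H1437, was -2.87 ± 0.13 (SE, edgeR's quasi-likelihood test, adjusted p = 1.84e-08, n = 2 against 4). MAX (log2 difference -0.82 ± 0.13, adjusted p = 0.000254) and MXI1 (-0.54 ± 0.14, adjusted p = 0.00614) were lower in NCI-H292 as well. The repressors MXD4 (0.78 ± 0.18, adjusted p = 0.00364), MXD1 (0.58 ± 0.14, adjusted p = 0.00436) and MNT (0.51 ± 0.11, adjusted p = 0.00198) were higher there. The MXD1 call was lost without H292-2 (adjusted p = 0.0521) and the MXI1 call without H292-1 (adjusted p = 0.0551). All 6 members passed in a comparison in which 64.3% of 19181 genes did, so the count of 6 is not particular to them. Line and experiment cannot be told apart in this comparison, since no experiment held both lines.

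Levels were also taken per kilobase of the gene's total exon length, which need not be the length of the transcript expressed. They compare genes only roughly, and the shares and ratios per kb below carry this limit. MYC was by this measure the highest of the 6 in untreated NCI-H1437, at 101 ± 3.08 CPM per kb (SD, n = 2, H1437-4). MAX stood at 15.3 ± 0.0789 and MXD1 at 5.03 ± 0.928 there. In untreated NCI-H292 the level of MYC per kb was 12.5 ± 0.189, that of MAX 8.89 ± 0.891 and that of MXD1 6.79 ± 0.168 (SD, n = 2, H292-1). MXD4 was at 4.53 ± 0.648, MNT at 4.02 ± 0.0932 and MXI1 at 2.76 ± 0.0621 CPM per kb in those libraries. MYC thus made up 86.1% to 87.9% of the summed per-kb level of the 5 MAX partners (MYC, MXD1, MXD4, MXI1 and MNT) in untreated H1437-4, and 40.1% to 41.6% in untreated H292-1.

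MYC was higher after stimulation in NCI-H292, and near its control in NCI-H1437. In H292-1 the DPBS libraries had 37.1 and 37.9 CPM of MYC and the WT ALT libraries 182 and 185, a log2 difference of 2.41 ± 0.16 (SE). In H292-2 MYC was at 45 and 38.8 CPM in DPBS and at 192 and 191 with Aeg-S/L, a log2 difference of 2.36 ± 0.11. Extract and purified proteins thus gave near-equal levels, in tables that were normalized separately. Mitochondrial genes took 2.51% and 2.79% of counts in DPBS and 0.986% and 1.02% with WT ALT in H292-1, and 2.09% and 2.41% against 1.82% and 2.05% with Aeg-S/L in H292-2. The part of this share in the MYC differences was not tested.

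In NCI-H1437 the stimulated libraries lay among or next to their controls. MYC was at 309 and 295 CPM in DPBS and at 307 and 299 with WT ALT in H1437-4 (log2 difference 0.08 ± 0.05), and at 287 ± 6.9 CPM (SD, n = 2) against 288 and 284 with Aeg-S/L in H1437-3 (0.10 ± 0.05). H1437-1 had 221, 266 and 323 CPM in DPBS and 299, 288 and 310 with ALT (0.23 ± 0.21), and H1437-2 had 333 and 302 against 346 and 346 with Aeg-S/L (0.23 ± 0.22). Given alone in H1437-2, Aeg-S libraries had 303 and 171 CPM and Aeg-L libraries 296 and 374, and both groups overlapped with DPBS. The Aeg-S library with 171 CPM, replicate 2, had 5.66% of its counts from mitochondrial genes, against 1.72% to 3.35% in the rest of H1437-2, and the part of this in its MYC level was not tested. The difference of the MYC change between the lines was 2.29 ± 0.18 for WT ALT and 2.28 ± 0.14 for Aeg-S/L (log2, NCI-H292 minus NCI-H1437).

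The 2 stimulated NCI-H292 groups still had less MYC than untreated NCI-H1437: 184 ± 1.9 and 192 ± 0.33 CPM against group means of 270 to 318 CPM. In the order of the 24 group means, the top was NCI-H1437 with Aeg-S/L and EGTA at 678 ± 23.2 CPM, followed by NCI-H292 with Aeg-S/L and EGTA at 397 ± 96.5. The next 12 groups were all NCI-H1437, from 346 down to 237 CPM, and most neighbours among them differed by less than their spread. At the bottom stood the 3 NCI-H292 groups with DPBS or aegs KO ALT, at 37.5 to 44.4 CPM, of which the aegs KO ALT group, at 38 and 50.7 CPM, overlapped the DPBS libraries of H292-2 (45 and 38.8) and lay just above those of H292-1 (37.1 and 37.9).

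**Figure D1:**
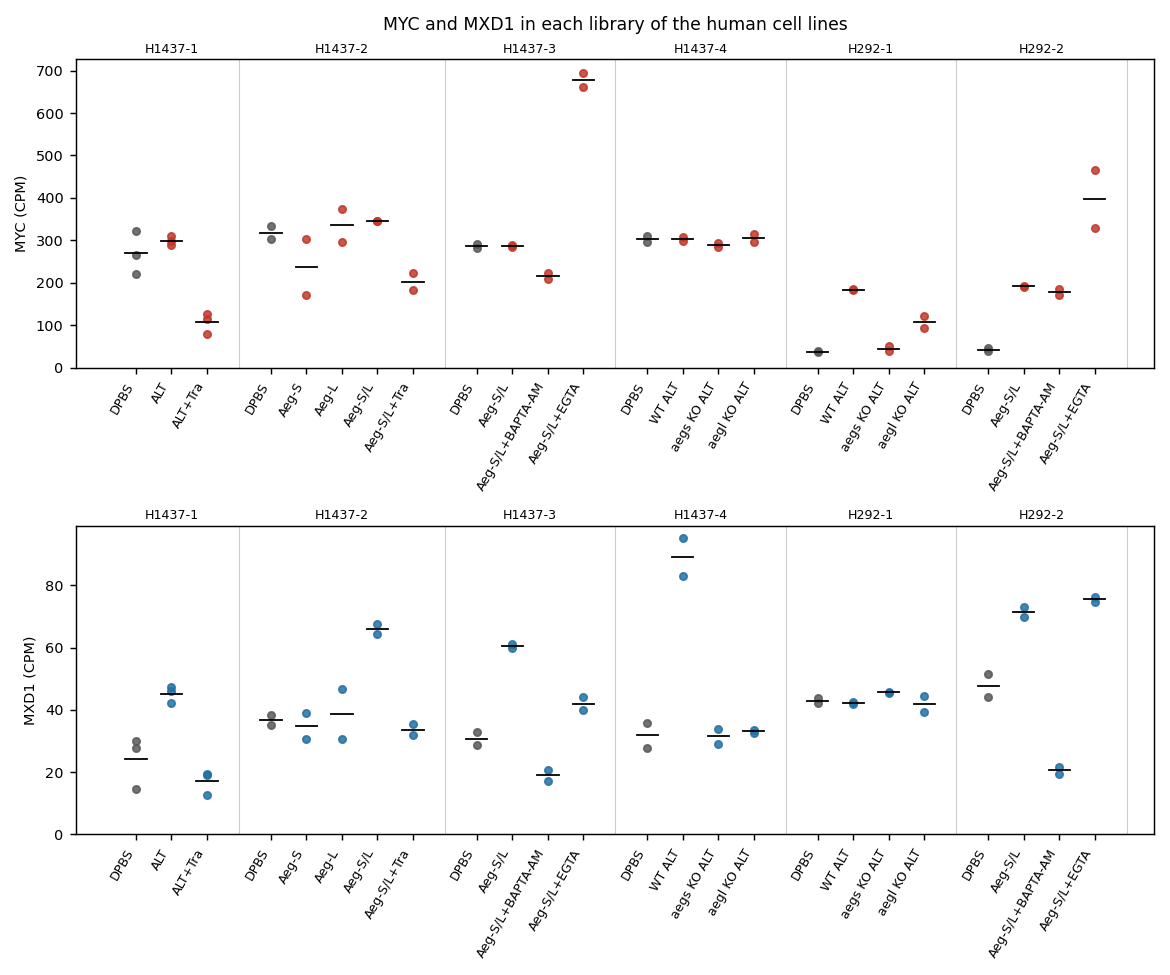
MYC (top) and MXD1 (bottom) in CPM for each library (points) with group means (black lines), grey for DPBS and coloured for treated groups, by experiment. MYC in NCI-H292 goes from about 40 CPM to 182 to 192 CPM with WT ALT or Aeg-S/L, while NCI-H1437 moves mainly with Tra and EGTA; MXD1 is highest in H1437-4 WT ALT, at 83.1 and 95.1 CPM.

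MXD1 was higher after stimulation in NCI-H1437. In H1437-4, where the MYC difference was 0.08, MXD1 was at 27.6 and 35.9 CPM in DPBS and at 83.1 and 95.1 with WT ALT, a log2 difference of 1.57 ± 0.11. The same gene stood higher by 1.08 ± 0.10 with Aeg-S/L in H1437-3 (28.6 and 32.9 CPM against 61 and 60), by 0.95 ± 0.21 in H1437-2 and by 0.99 ± 0.25 with ALT in H1437-1, with no overlap in any of these. In H292-2 it was at 51.5 and 44.1 CPM in DPBS and at 69.7 and 73 with Aeg-S/L (0.74 ± 0.08). In H292-1, by contrast, the groups overlapped with WT ALT (42.9 ± 1.06 against 42.3 ± 0.357 CPM, SD, n = 2; log2 difference 0.09 ± 0.12). The MYC level per kb was therefore 17.3 to 23.6 times that of MXD1 in untreated H1437-4 and 6.6 to 7.86 times with WT ALT, whereas in H292-1 it went from 1.82 to 1.86 times up to 9.16 to 9.18 times.

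MAX, the partner shared by MYC and its opponents, was lower with the stimulus in NCI-H292. It had 42.2 and 36.6 CPM in DPBS and 18.4 and 20.1 with WT ALT in H292-1 (log2 difference -0.92 ± 0.15), and 31 and 32.5 against 17.8 and 21.7 with Aeg-S/L in H292-2 (-0.52 ± 0.11). In NCI-H1437 the MAX difference was -0.45 ± 0.07 with Aeg-S/L in H1437-3, -0.20 ± 0.07 with WT ALT in H1437-4, -0.52 ± 0.21 in H1437-2 and 0.26 ± 0.24 with ALT in H1437-1. MNT, the broadly expressed repressor, stood at 34.5 and 35.7 CPM in DPBS against 19.5 and 19.5 with WT ALT in H292-1 (-0.73 ± 0.15), and at 39.5 and 40.5 against 26.6 and 23.2 with Aeg-S/L in H292-2 (-0.52 ± 0.11). MXD4 differed by -0.57 ± 0.18 (28.7 and 35.2 CPM against 18.9 and 21.1) and by -0.82 ± 0.11 (32.6 and 34.5 against 17.5 and 16.5). MXI1 stayed within -0.25 to -0.06 of its control on the log2 scale in the 6 stimulus comparisons (ALT, WT ALT or Aeg-S/L).

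Counted by the call used throughout (adjusted p under 0.05), 4 of 6 members passed in H292-1 WT ALT, where 22.9% of all genes tested did, and 5 of 6 in H292-2 Aeg-S/L, where 43.2% did. In NCI-H1437 it was 0 of 6 in H1437-1 ALT (4.71% of all genes), 1 of 6 in H1437-2 Aeg-S/L (6.72%), 4 of 6 in H1437-3 Aeg-S/L (31.2%) and 3 of 6 in H1437-4 WT ALT (32.8%). These counts come from the contrasts the members were chosen on, and nothing is read from them.

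**Figure D2:**
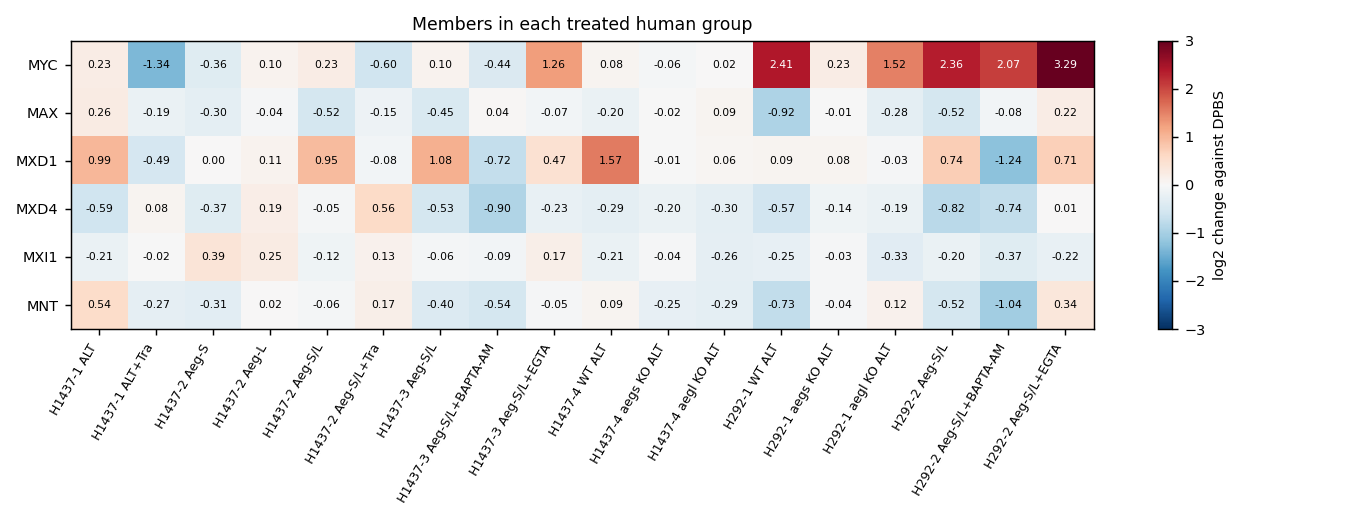
Log2 change against the DPBS group of the same experiment (edgeR) for the 6 human members (rows) in the 18 treated human groups (columns), red for higher and blue for lower. The MYC row is red in NCI-H292 with WT ALT, aegl KO ALT and all Aeg-S/L groups; the MXD1 row is blue with BAPTA-AM, at -0.72 and -1.24.

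The extracts labelled with a knockout gave NCI-H292 less MYC than WT ALT did. MYC had 38 and 50.7 CPM with aegs KO ALT and 94.1 and 121 CPM with aegl KO ALT, next to 182 and 185 with WT ALT. Against WT ALT, MYC fell by 2.17 on the log2 scale with aegs KO ALT (-2.17 ± 0.16, edgeR's quasi-likelihood test, adjusted p = 9.33e-06) and by 0.88 with aegl KO ALT (-0.88 ± 0.16, adjusted p = 0.00326). Both comparisons share the WT ALT libraries, and neither pair of groups overlapped. The aegl KO ALT group was still above DPBS in both libraries, by 1.52 ± 0.16 on the log2 scale, in a comparison in which 20 of 16613 genes (0.120%) were called. The aegs KO ALT group differed from DPBS by 0.23 ± 0.16. Between the lines the MYC change with aegl KO ALT differed by 1.47 ± 0.18 (NCI-H292 minus NCI-H1437), where 0.0645% of all genes were called. In H1437-4 the MYC difference against WT ALT was -0.14 ± 0.05 with aegs KO ALT (adjusted p = 0.0534) and -0.06 ± 0.05 with aegl KO ALT (adjusted p = 0.439).

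MAX and MNT were higher in NCI-H292 with either knockout extract than with WT ALT. MAX rose by 0.90 ± 0.15 (adjusted p = 0.00161) with aegs KO ALT and by 0.63 ± 0.15 (adjusted p = 0.0138) with aegl KO ALT against WT ALT, and MNT by 0.69 ± 0.15 (adjusted p = 0.00813) and 0.85 ± 0.15 (adjusted p = 0.00342). The MAX call with aegl KO ALT was lost without either WT ALT library or without aegl KO ALT replicate 2 (adjusted p = 0.0775 to 0.155), and the MNT call with aegs KO ALT without either WT ALT library (0.0738 to 0.0778). Mitochondrial shares in these groups were 2.24% and 2.61% with aegs KO ALT and 0.554% and 2.26% with aegl KO ALT, and their part was not tested. Together with MYC, 3 of 6 members passed in each, against 26.6% of all genes for aegs KO ALT and 19.0% for aegl KO ALT. MXD1 was the member that moved in H1437-4, falling by 1.58 on the log2 scale (-1.58 ± 0.11, adjusted p = 2.16e-08) and by 1.51 (-1.51 ± 0.11, adjusted p = 3.99e-08), back to 29.1 to 33.8 CPM. There 2 of 6 members passed with aegs KO ALT (29.9% of all genes) and 3 of 6 with aegl KO ALT (30.6%), the others being MNT (-0.35 ± 0.10 and -0.38 ± 0.10) and, with aegl KO ALT, MAX (0.29 ± 0.07). Both MNT calls were lost without WT ALT replicate 2 or either knockout library (adjusted p = 0.102 to 0.112 and 0.062 to 0.0804), and the MAX call without aegl KO ALT replicate 2 (0.0556).

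MEK is the kinase that activates ERK, and the MEK inhibitor labelled Tra was tested in NCI-H1437 alone. In H1437-1 MYC was at 299, 288 and 310 CPM with ALT and at 115, 127 and 78.6 CPM with ALT and Tra. This was a fall of 1.56 on the log2 scale (-1.56 ± 0.21, edgeR, adjusted p = 0.00197), and all 3 Tra libraries were also below all 3 DPBS libraries. In H1437-2 MYC went from 346 and 346 CPM with Aeg-S/L to 223 and 182 with Tra (-0.83 ± 0.22, adjusted p = 0.126), with no overlap and no call. MXD1 fell with Tra in both experiments, by 1.48 (-1.48 ± 0.26, adjusted p = 0.0081) and by 1.03 (-1.03 ± 0.21, adjusted p = 0.0299). The second of these calls was lost when any 1 of the 4 libraries was left out (log2 difference -1.1 to -0.937, adjusted p = 0.225 to 0.426). Thus 2 of 6 members were called in H1437-1, against 5.08% of all genes, and 1 of 6 in H1437-2, against 1.27%. MNT (-0.81 ± 0.21, adjusted p = 0.0521, and 0.23 ± 0.21, adjusted p = 0.831) differed in sign between the experiments and was called in neither by edgeR. In H1437-1 MNT passed with DESeq2 (-0.802, adjusted p = 0.019) and with no filter on low counts (-0.808, adjusted p = 0.0323).

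With the calcium chelators MYC and MXD1 took different courses. With BAPTA-AM added to Aeg-S/L, MXD1 fell in both lines, to 17.1 and 20.8 CPM in H1437-3 (-1.80 ± 0.10, adjusted p = 5.82e-10) and to 19.5 and 21.5 CPM in H292-2 (-1.98 ± 0.09, adjusted p = 5.77e-13), in each line below both DPBS libraries of the experiment. MYC moved less: from 288 and 284 to 208 and 222 CPM in H1437-3 (-0.54 ± 0.05, adjusted p = 1.15e-06), and from 192 and 191 to 185 and 170 CPM in H292-2 (-0.29 ± 0.10, adjusted p = 0.032). The H292-2 call was lost with DESeq2 (adjusted p = 0.247) and without Aeg-S/L replicate 1 (0.116), Aeg-S/L replicate 2 (0.106) or BAPTA-AM replicate 2 (0.21). MYC in H292-2 stood 2.07 ± 0.11 above DPBS on the log2 scale with BAPTA-AM. The BAPTA-AM libraries also had a low mitochondrial share of counts. It was 0.190% and 0.217% in H292-2, against 1.82% to 2.41% with Aeg-S/L or DPBS, and 0.796% and 1.15% in H1437-3, against 1.98% to 3.45%. With EGTA it was 1.06% and 1.40% in H292-2 and 2.29% and 2.34% in H1437-3. The part of this shift in the results of both chelators, for members and lists, was not tested.

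EGTA went with the highest MYC levels of the series. MYC was at 695 and 662 CPM with Aeg-S/L and EGTA in H1437-3, against 288 and 284 with Aeg-S/L alone (log2 rise 1.16 ± 0.05, edgeR, adjusted p = 1.77e-10). In H292-2 it was at 465 and 329 CPM against 192 and 191 (0.93 ± 0.10, adjusted p = 5.91e-07). The untreated level was exceeded in both lines, by 1.26 ± 0.05 and 3.29 ± 0.12. MXD1 fell with EGTA in H1437-3 (-0.61 ± 0.09, adjusted p = 0.000132), to 44 and 39.9 CPM, and was at 74.6 and 76.4 CPM in H292-2 (-0.04 ± 0.08, adjusted p = 0.754). Between the chelators, MYC was lower with BAPTA-AM than with EGTA by -1.70 ± 0.06 in H1437-3 (adjusted p = 4.48e-12) and by -1.23 ± 0.10 in H292-2 (adjusted p = 1.18e-08), comparisons that share these libraries with the ones above.

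MAX rose with either chelator against Aeg-S/L alone. With EGTA the rise was 0.38 ± 0.07 (adjusted p = 0.00038) in H1437-3 and 0.75 ± 0.11 (adjusted p = 1.35e-05) in H292-2, and with BAPTA-AM 0.49 ± 0.07 (adjusted p = 2.72e-05) and 0.44 ± 0.11 (adjusted p = 0.00285). MNT rose with EGTA, by 0.35 ± 0.11 (adjusted p = 0.0196) and 0.86 ± 0.11 (adjusted p = 2.4e-06), reaching 53.3 and 45.1 CPM in H292-2. In H1437-3 the MNT call was lost without EGTA replicate 2, where the rise was 0.199, or without either Aeg-S/L library (adjusted p = 0.0638 to 0.286). The MAX call with BAPTA-AM in H292-2 was lost without Aeg-S/L replicate 1 (0.302, adjusted p = 0.0916). With BAPTA-AM, MNT fell in H292-2 (-0.52 ± 0.11, adjusted p = 0.000982), to 21.6 and 18 CPM. MXD4 rose with EGTA in H292-2 (0.83 ± 0.11, adjusted p = 3.58e-06), back to 35.8 and 29.8 CPM, which overlaps its DPBS libraries at 32.6 and 34.5 CPM.

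Of the 6 members, 3 were called with BAPTA-AM in H1437-3 (27.7% of all genes) and 4 in H292-2 (37.9%). With EGTA 4 were called in H1437-3 (30.6%) and 4 in H292-2 (44.9%). Between the chelators 4 were called in H1437-3 (37.7%) and 5 in H292-2 (46.6%). Of these, MNT in H1437-3 was lost without EGTA replicate 2 (adjusted p = 0.0504), and MAX in H292-2 without BAPTA-AM replicate 2 or EGTA replicate 2 (0.118 to 0.197). MXI1 was called in none of the 6 chelator comparisons.

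**Figure D3:**
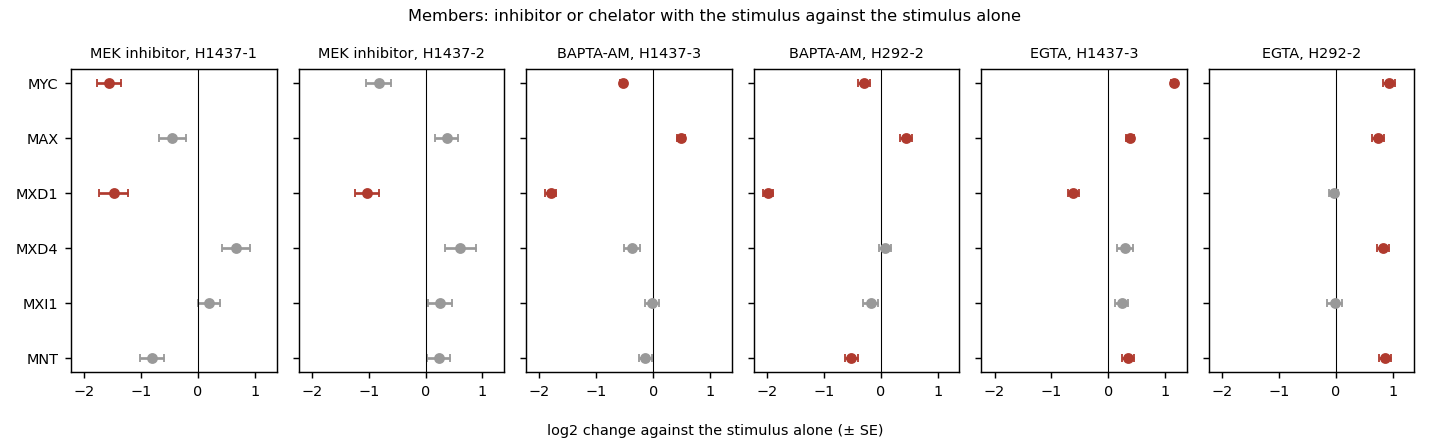
Log2 change (points, bars ± SE, edgeR) of the 6 members when Tra, BAPTA-AM or EGTA was added to the stimulus, against the stimulus alone; red marks adjusted p under 0.05. MXD1 is left of 0 in the Tra and BAPTA-AM panels, and MYC is right of 0 only with EGTA.

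Other genes of the network and of MYC control were taken from lists written with earlier results of these data known. The p-values of these genes, and of the target genes below, are therefore not independent of those results. Most genes named are the called ones with the smallest p in their list. In a list of 15 tested partners and co-regulators, 6 rose and 2 fell with Aeg-S/L in H292-2, where 22.1% of all genes rose and 21.1% fell, with a median log2 change of 0.14 against -0.01 over all genes. ZBTB17 (MIZ-1), a partner through which MYC represses, rose by 0.80 ± 0.15 (edgeR, adjusted p = 0.000201) in H292-2 and by 0.90 ± 0.16 (adjusted p = 0.00312) with WT ALT in H292-1. In H1437-3 the same list had 4 rises and 3 falls with Aeg-S/L, where 15.4% of all genes rose and 15.8% fell. Among the falls were MXD3, another MAX-binding repressor (-1.06 ± 0.14, adjusted p = 2.91e-05), and MGA (-0.68 ± 0.13, adjusted p = 0.000585). With BAPTA-AM against Aeg-S/L the list had 4 rises and 2 falls in H1437-3 (11.6% and 16.1% of all genes) and 4 and 3 in H292-2 (17.6% and 20.3%). The co-repressor SIN3A fell in both lines there, by 1.12 (-1.12 ± 0.07, adjusted p = 2.77e-09) in H1437-3 and by 0.90 (-0.90 ± 0.06, adjusted p = 3.92e-10) in H292-2.

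A list of 14 tested genes that control the MYC level held 8 rises and 4 falls with Aeg-S/L in H292-2, against 22.1% and 21.1% of all genes. With WT ALT in H292-1 it had 7 rises and 1 fall, against 11.6% and 11.3%. In NCI-H1437 it had 6 rises and 2 falls in H1437-3 (15.4% and 15.8%), and 6 and 7 in H1437-4 (15.8% and 17.1%). PVT1, the long non-coding gene beside MYC, rose by 1.77 ± 0.10 (edgeR, adjusted p = 3.68e-11) in H292-2 and by 2.04 ± 0.18 (adjusted p = 3.16e-05) in H292-1. PVT1 also rose in NCI-H1437, where the MYC difference was 0.10 and 0.08: by 1.15 ± 0.12 (adjusted p = 2.03e-06) in H1437-3 and by 1.24 ± 0.11 (adjusted p = 2.99e-07) in H1437-4. USP36, a nucleolar enzyme that stabilises MYC protein, rose by 1.69 ± 0.07 (adjusted p = 1.64e-11) in H1437-3, and AURKA, a mitotic kinase, fell by 1.15 (-1.15 ± 0.06, adjusted p = 3.2e-12) in H292-2. PVT1 fell when EGTA was added to Aeg-S/L, by 0.79 in H1437-3 (-0.79 ± 0.12, adjusted p = 0.000107) and by 0.82 in H292-2 (-0.82 ± 0.10, adjusted p = 1.21e-06), while MYC rose in those libraries. With Tra against ALT in H1437-1, PVT1 fell together with MYC (-1.76 ± 0.35, edgeR, adjusted p = 0.0168).

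Genes that MYC is known to raise were tested as a list of nucleolar and ribosome production genes and a list of growth and metabolism genes. Between the untreated lines, 6 of 23 nucleolar genes were higher in NCI-H292 and 8 lower, against 32.2% and 32.1% of all genes. The growth list had 7 higher and 8 lower of 23 there. With aegl KO ALT against DPBS in H292-1, 0 of 23 were called in each list by edgeR, with medians of 0.27 and 0.06. With Aeg-S/L in H292-2, 13 of 23 nucleolar genes rose and 3 fell, while 22.1% of all genes rose and 21.1% fell; the list's median log2 change was 0.24 and that of all genes -0.01. The growth list had 10 rises and 3 falls of 23 (median 0.20). Ribosome factors RRP12 (1.07 ± 0.06, adjusted p = 1.25e-11) and BYSL (1.14 ± 0.07, adjusted p = 5.38e-11) and the cyclin gene CCND2 (1.5 ± 0.06, adjusted p = 2e-13) rose most clearly. ODC1, the first enzyme of polyamine synthesis, rose by 0.99 ± 0.07 (adjusted p = 4.38e-10). NCL (0.06 ± 0.05, adjusted p = 0.438) and CDK4 (0.06 ± 0.07, adjusted p = 0.546) were not called. With WT ALT in H292-1, 6 of 23 nucleolar genes rose and 1 fell, and 5 of 23 growth genes rose and 1 fell, while 11.6% of all genes rose and 11.3% fell. These 13 calls over both lists became 4 to 7 when any 1 library was left out.

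In NCI-H1437 with Aeg-S/L (H1437-3), 9 of 23 nucleolar genes rose and 4 fell, with a median of 0.04, and 6 of 22 growth genes rose and 3 fell, with a median of 0.06, while 15.4% of all genes rose and 15.8% fell. RRS1, a ribosome assembly factor, fell by 0.61 (-0.61 ± 0.09, adjusted p = 8.1e-05) in H1437-3 and by 0.57 (-0.57 ± 0.07, adjusted p = 1.52e-05) with WT ALT in H1437-4, and also by 0.52 (-0.52 ± 0.13, adjusted p = 0.0154) with WT ALT in H292-1. ODC1 rose by 0.35 ± 0.05 (adjusted p = 8.53e-05) in H1437-3. The 22 calls over both lists became 13 to 19 when any 1 library was left out. With WT ALT in H1437-4, 6 of 23 nucleolar genes rose and 6 fell, and 5 of 22 growth genes rose and 3 fell, while 15.8% of all genes rose and 17.1% fell. These 20 calls became 12 to 27 when any 1 library was left out. The Aeg-S/L change was compared between the lines as a signed difference, so a fall in NCI-H1437 alone also counts as higher in NCI-H292. Of 23 nucleolar genes 8 were called higher in NCI-H292 and 0 lower, with 14.3% of all genes called, 7.48% higher and 6.82% lower. For WT ALT these counts were 2 and 0 (8.90% of all genes, 4.20% higher). For Aeg-S/L with EGTA they were 9 and 0 (8.99%, 5.76% higher). With BAPTA-AM 5 were higher and 1 lower (7.97% of all genes, 3.73% higher). In the growth list, 5 of 23 were higher and 1 lower with Aeg-S/L. There it was 2 and 0 with WT ALT, 3 and 2 with EGTA, and 1 and 3 with BAPTA-AM.

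With EGTA, where MYC was highest, calls on the target lists against Aeg-S/L alone went both ways, as they did over all genes. In H292-2 with EGTA against DPBS, 16 of 23 nucleolar genes rose and 0 fell, with a median log2 change of 0.32. The growth list had 9 rises and 5 falls of 23 there, while 20.1% of all genes rose and 14.4% fell. In H1437-3 against DPBS, 2 of 23 nucleolar and 1 of 22 growth genes rose and 0 fell (4.19% and 0.988% of all genes). Against Aeg-S/L alone in H292-2, 10 of 23 nucleolar genes rose and 7 fell, and 6 of 23 growth genes rose and 9 fell, while 23.2% of all genes rose and 21.7% fell. WDR43 (1.07 ± 0.07, adjusted p = 2.34e-10) and UTP20 (0.85 ± 0.07, adjusted p = 5.18e-09), both small-subunit assembly factors, rose. RRP12 (-0.84 ± 0.06, adjusted p = 6.46e-10) and ODC1 (-1.26 ± 0.07, adjusted p = 1.8e-11) fell, ODC1 from 564 ± 8.02 to 255 ± 30.5 CPM (SD, n = 2). In H1437-3, 6 of 23 nucleolar genes rose and 8 fell with EGTA, against 15.8% and 14.8% of all genes, with WDR43 again among the rises (0.58 ± 0.06, adjusted p = 2.52e-06) and ODC1 among the falls (-0.31 ± 0.05, adjusted p = 0.000293). The 20 calls over both lists became 12 to 16 there when any 1 library was left out. In H1437-1 the nucleolar list had, with Tra, a median log2 change of -0.46 against ALT, with 3 of 23 called, all lower, while 1.33% of all genes rose and 3.75% fell: RRS1 (-1.24 ± 0.23, adjusted p = 0.0106), NIP7 (-1.03 ± 0.21, adjusted p = 0.0164) and NOP16 (-1.08 ± 0.25, adjusted p = 0.0346). The other call over both lists was EIF4A1, a translation initiation helicase of the growth list (-2.07 ± 0.31, adjusted p = 0.00385), at 1.14 ± 0.4 against 4.53 ± 0.933 CPM (SD, n = 3). EIF4A1 is known as an abundant transcript, so a level this low puts its counting in doubt, here and among the calls in H292-1. The 4 calls became 1 to 5 when any 1 library was left out, 8 with DESeq2 and 7 with no filter on low counts. In H1437-2 none of 23 was called with Tra by edgeR, and the median log2 change of the nucleolar list was -0.02. There 0.124% of all genes rose and 1.15% fell.

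A further list held genes known to be repressed by MYC. With Aeg-S/L in H292-2, 5 of 10 rose and 3 fell (22.1% and 21.1% of all genes), and in H1437-3 6 of 9 rose and 0 fell (15.4% and 15.8%). KLF6 (2.50 ± 0.09, adjusted p = 3.44e-14, and 3.38 ± 0.08, adjusted p = 3.1e-14) and GADD45B (3.87 ± 0.07, adjusted p = 1.47e-18, and 3 ± 0.09, adjusted p = 4.19e-13), both stress-induced genes, rose in both lines, while NDRG1 fell in H292-2 (-1.20 ± 0.07, adjusted p = 6.18e-11). With EGTA against Aeg-S/L, 8 of 10 fell in H292-2 (21.7% of all genes) and 7 of 9 in H1437-3 (14.8%), and none rose in these tests. With BAPTA-AM 7 of 10 fell and 1 rose in H292-2 (20.3% and 17.6%), and 7 of 9 fell in H1437-3 (16.1%). With Tra 3 of 9 fell in H1437-1 (3.75%) and 3 of 10 in H1437-2 (1.15%), CDKN1A, the p21 cell cycle inhibitor, in both (-2.26 ± 0.23, adjusted p = 0.000259, and -1.40 ± 0.19, adjusted p = 0.00199).

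**Figure D4:**
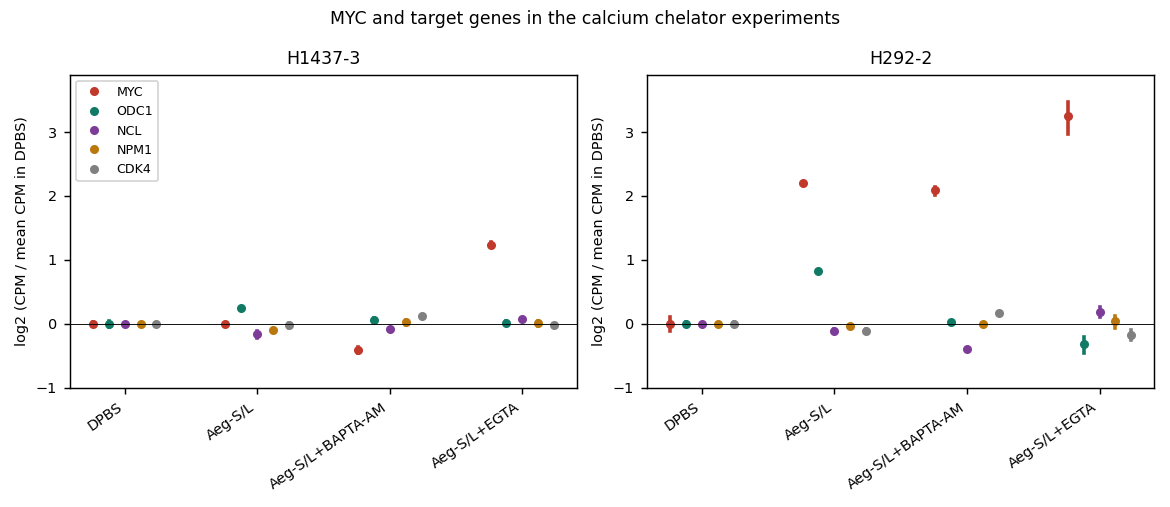
Log2 ratio of CPM to the mean CPM in DPBS for MYC and 4 target genes in H1437-3 and H292-2; points are group means and bars span the 2 libraries. ODC1 is highest with Aeg-S/L and lower with EGTA, where MYC is highest.

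E-boxes were common near the growth list: CACGTG lay in the 250 bases before the start of 11 of 20 growth genes (55.0%) and of 1 of 19 nucleolar genes (5.26%), against 7.73% of all genes. In the other lists it lay there in 2 of 14 network genes, 2 of 10 genes of MYC control and 2 of 8 repressed genes. When 50 bases after the start were added, the growth and nucleolar counts were 13 of 20 and 9 of 19, against 8.77% of all genes. The nucleolar share thus rests on the bases just after the start.

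The genes whose group changes ran most like MYC over the 18 treated human groups, among 11594 genes tested in all 6 experiments with at least 5 CPM in some group, were ETV5 (Pearson r = 0.939), BCAR3 (0.906), KIAA0040 (0.902), ZNF710 (0.89) and VEGFA (0.884). For MXD1 they were ITPRIP (0.899), AKIRIN2 (0.879), PRDM1 (0.867), CFLAR (0.862) and RRAD (0.858). Between MYC and MXD1 themselves r was 0.0939. Groups of one experiment share their DPBS libraries, so these values describe likeness only.

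In mouse lung epithelial cells Myc (chr15:61985391-61990374 on mm10) was higher with ALT, WT ALT, Aeg-S/L, lysenin, PlyA2EryB and LSL than in DPBS. Lung1 had 31.6, 31.2 and 26.8 CPM in DPBS and 95.1, 101 and 80.8 with ALT (log2 difference 1.69 ± 0.10, SE). Lung2 had 24.5 and 49 CPM in DPBS and 148 and 142 with Aeg-S/L (2.13 ± 0.37). With Aeg-S alone (38.7 and 21.2) or Aeg-L alone (25.6 and 42.8) the libraries overlapped with DPBS. In Lung3 Myc stood at 26.1 and 36.1 CPM in DPBS and at 104 and 122 with WT ALT (1.84 ± 0.22).

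With the knockout extracts the level was lower. Myc was lower than with WT ALT by -1.70 ± 0.22 with aegs KO ALT (edgeR, adjusted p = 0.000879) and by -1.69 ± 0.22 with aegl KO ALT (adjusted p = 0.000986), at group means of 35.4 and 35.7 CPM. Both groups overlapped with DPBS. Mxd1, at chr6:86647042-86669161, moved with it: by -1.07 ± 0.19 (adjusted p = 0.00339) and -0.95 ± 0.19 (adjusted p = 0.00624). The second was lost without WT ALT replicate 1 or aegl KO ALT replicate 1 (adjusted p = 0.0554 to 0.0804). Both genes passed in both comparisons, against 28.8% and 27.8% of all genes.

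In Lung4 the Myc level differed between the pore-forming proteins, above a low control. DPBS libraries had 3.18 and 2.61 CPM, lysenin 42.5 and 41.1, PlyA2EryB 72.4 and 70.1, and LSL 55.9 and 57.2, so that the 4 groups did not overlap. PlyA2EryB exceeded lysenin by 0.79 ± 0.06 (edgeR, adjusted p = 2.62e-08), LSL exceeded lysenin by 0.39 ± 0.06 (adjusted p = 3.7e-05) and LSL was below PlyA2EryB by -0.40 ± 0.05 (adjusted p = 2.06e-05). In IL33KO2 the order of LSL and lysenin was the other way round: DPBS had 4.34 and 4.93 CPM, LSL 25 and 24.9, lysenin 39.2 and 36.8, and PlyA2EryB 54.7 and 55.8. There PlyA2EryB exceeded lysenin by 0.66 ± 0.08 (adjusted p = 0.00342), and LSL was below lysenin by -0.62 ± 0.08 (adjusted p = 0.00767) and below PlyA2EryB by -1.29 ± 0.08 (adjusted p = 0.000118). The first of these lost its call when any 1 of the 4 libraries was left out (log2 difference 0.62 to 0.72), and so did LSL against lysenin (-0.67 to -0.58). Doses were not given in the sources used here, and genotype and experiment cannot be told apart. Whether the order differs between the strains was not tested.

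Within Lung4, and within IL33KO2, Mxd1 was highest with LSL. It was at 49.6 ± 1.22 CPM in DPBS, 57.4 ± 1.3 with lysenin, 52.2 ± 1.17 with PlyA2EryB and 76.4 ± 1.01 with LSL in Lung4 (SD, n = 2). LSL exceeded lysenin by 0.37 ± 0.05 (adjusted p = 9.51e-06) and PlyA2EryB by 0.49 ± 0.05 (adjusted p = 3.2e-07), and in IL33KO2 by 0.57 ± 0.07 (adjusted p = 0.00746) and 0.42 ± 0.07 (adjusted p = 0.00567). In IL33KO2 the first call was lost without any 1 of its 4 libraries (adjusted p = 0.0999 to 0.133), and the second without either LSL library or PlyA2EryB replicate b (0.0528 to 0.0681). PlyA2EryB and lysenin were not called apart for Mxd1 in either, at -0.12 ± 0.05 (adjusted p = 0.0799) and 0.15 ± 0.07 (adjusted p = 0.217). In Lung4 1 of 2 members passed for PlyA2EryB against lysenin (22.7% of all genes), 2 of 2 for LSL against lysenin (26.7%) and 2 of 2 for LSL against PlyA2EryB (33.4%). In IL33KO2 these were 1 (9.52%), 2 (2.51%) and 2 (23.1%) of 2.

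Mice without IL-33, or without Rag2 and the common gamma chain gene labelled gc, still had higher Myc after a stimulus. IL33KO1 was at 5.04 and 5.93 CPM in DPBS, 59.6 and 35.6 with ALT (3.08 ± 0.30) and 50.9 and 54 with Aeg-S/L (3.25 ± 0.30). Rag2gc was at 4.08 and 3.98 CPM in DPBS and at 122 and 113 with Aeg-S/L (4.82 ± 0.08). For Mxd1 the log2 difference against DPBS was 0.79 ± 0.10 with ALT in Lung1, 2.13 ± 0.13 with Aeg-S/L in Lung2 and 1.03 ± 0.19 with WT ALT in Lung3. It was -0.28 ± 0.13 and -0.07 ± 0.13 in IL33KO1 and -0.02 ± 0.06 in Rag2gc. In wild-type Lung4 it was 0.08 ± 0.05 with lysenin, -0.04 ± 0.05 with PlyA2EryB and 0.44 ± 0.05 with LSL, and in IL33KO2 -0.12 ± 0.07, 0.03 ± 0.07 and 0.45 ± 0.07. For ALT and Aeg-S/L the values were thus higher in Lung1 and Lung2, with no genotype given, than in the knockout strains. For LSL they were nearly equal in Lung4 and IL33KO2, and for lysenin and PlyA2EryB near 0 in both. Strain and experiment cannot be told apart, and no difference between strains was tested.

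The untreated Myc level split the mouse experiments. DPBS libraries of Lung1, Lung2 and Lung3 held 24.5 to 49 CPM, and those of Lung4, IL33KO1, IL33KO2 and Rag2gc 2.61 to 5.93 CPM, with no overlap, so the size of the log2 differences follows in part from the control. Lung4, which is wild type, stood with the knockout strains. The tables were normalized separately, and experiment and strain cannot be told apart. Untreated Mxd1 showed no such split: its DPBS means ran from 49.6 ± 1.22 in Lung4 to 68.3 ± 2.4 CPM in Rag2gc, with Lung1 at 65.3 ± 5.95.

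**Figure D5:**
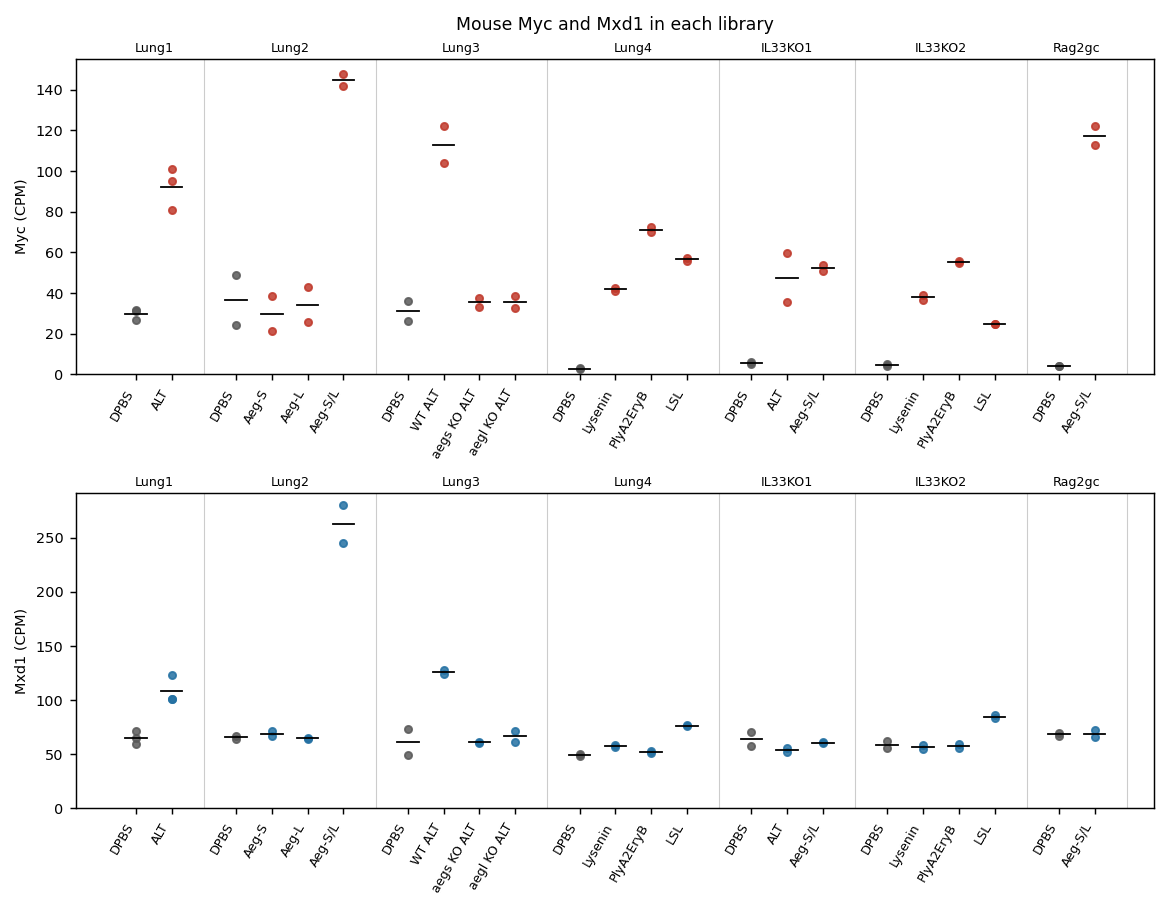
Mouse Myc (top) and Mxd1 (bottom) in CPM for each library (points) with group means (black lines), grey for DPBS, by experiment. The grey Myc points lie at 24.5 to 49 CPM in Lung1 to Lung3 and at 2.61 to 5.93 CPM in the other 4 experiments; Mxd1 is highest in Lung2 with Aeg-S/L, at 280 and 245 CPM.

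Over the 16 treated mouse groups and 12358 genes, the gene IDs whose changes ran most like Myc were ENSMUSG00000032038.7 (Pearson r = 0.981) and ENSMUSG00000031584.16 (0.98), and for Mxd1 ENSMUSG00000027478.15 (0.93) and ENSMUSG00000039990.16 (0.926). Between Myc and Mxd1 r was -0.113.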

How the data were processed

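RNA was sequenced from 51 libraries of human lines and 48 of mouse lung epithelial cells. The authors deposited raw read counts per gene in 13 tables, 1 per experiment. Per the submitters' processing notes, HISAT2 2.2.1, SAMtools and featureCounts 2.0.2 were used, with builds hg19 and mm10, and DESeq2 1.36.0 in R 4.2.2. The annotation and strand setting are not stated in the labels or file headers. CPM is a gene's count over the library's assigned total.

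Each experiment was fitted with edgeR 4.0.16 (quasi-likelihood test, filterByExpr, TMM) in R 4.3.3, with limma 3.58.1 loaded, over all its groups. P-values were adjusted by Benjamini-Hochberg over all genes tested, and a call is an adjusted p under 0.05. The SE is the log2 difference over the square root of F. Lines were compared in a joint fit of both experiments. Alternatives were DESeq2 1.42.0, its size factors, no filter on low counts, a replicate block and each library left out. Scripts were tested on simulated data. No 2 libraries agreed within sampling noise (57 pairs, lowest chi-square per degree of freedom 2.81). The highest values were in H1437-1, at 343 for DPBS replicates 1 and 3 and 247 for ALT with Tra replicates 1 and 3. In Lung4, 2 rows without a gene ID, holding 3.02e-06 percent of its counts, were left out.

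The members and the 5 gene lists (network and co-regulators, control of the MYC level, nucleolar targets, growth targets, repressed targets) were chosen with earlier results of these data known. Named genes are the 8 members, up to 4 called genes per list and comparison with the smallest p, NCL, NPM1, ODC1 and CDK4 whatever their value, and the genes most like MYC, MXD1, Myc and Mxd1.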

Additional observations from a re-analysis of the deposited data

Results flagged for a closer look

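For 10 of the 36 results of the 6 members in 6 comparisons of the human lines, the edgeR interaction was past the call threshold. The members were chosen on the line difference of MYC, so these values restate that choice, are given as a description and support nothing. Over all genes, 8.90% were called with WT ALT, 0.0645% with aegl KO ALT, 14.3% with Aeg-S/L, 7.97% with Aeg-S/L and BAPTA-AM, and 8.99% with Aeg-S/L and EGTA. All values are log2 differences of the change against DPBS, NCI-H292 minus NCI-H1437. For MYC the difference was 2.29 with WT ALT, 1.47 with aegl KO ALT, 2.28 with Aeg-S/L, 2.48 with Aeg-S/L and BAPTA-AM, and 2.04 with Aeg-S/L and EGTA. For MXD1 it was -1.51 with WT ALT and -0.54 with Aeg-S/L and BAPTA-AM. For MNT it was -0.86 with WT ALT and -0.53 with Aeg-S/L and BAPTA-AM, and for MAX it was -0.75 with WT ALT. Each line was run in its own experiments, so line and experiment cannot be told apart.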

How the results depend on the processing

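Of the MYC and Myc results tested, none changed direction under any alternative. MYC with Tra in H1437-2 passed with DESeq2 (-0.81, adjusted p = 0.0235) and with no filter on low counts (-0.797, adjusted p = 0.00419). MYC with aegs KO ALT against WT ALT in H1437-4 passed with DESeq2 (-0.14, adjusted p = 0.038), and leaving out 1 library gave -0.161 to -0.105, passing without WT ALT replicate 2. MYC with BAPTA-AM in H292-2 was lost with DESeq2 (-0.308), and leaving out 1 library gave -0.359 to -0.235. In IL33KO2, leaving out 1 library gave 0.621 to 0.717 for PlyA2EryB and -0.672 to -0.577 for LSL against lysenin. The causes were not tested.

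Of 40 other member results with a call, 15 lost it without at least 1 library, as given beside each, and none changed direction under any alternative run. Besides MNT with Tra in H1437-1, calls were gained in edgeR with no filter on low counts. They were MXD4 with BAPTA-AM against Aeg-S/L in H1437-3 (-0.376, adjusted p = 0.0467), and with aegs KO ALT against WT ALT MAX in H1437-4 (0.212, adjusted p = 0.0451) and MXD4 in H292-1 (0.458, adjusted p = 0.0379). The first also passed with the replicate block (adjusted p = 0.0297). When 1 library was left out, 32 counts of calls over both target lists moved by over 1.5 times and 94 did not. Under the other alternatives these calls moved that far in 9 of 30 human comparisons. With DESeq2 and with no filter they were, in H1437-1, 8 and 7 in place of 4 for Tra against ALT, and 1 and 3 in place of 0 for ALT with Tra against DPBS. For aegs KO ALT against DPBS in H1437-4 they were 2 and 2 in place of 1, and for aegl KO ALT against DPBS in H292-1 they were 7 and 8 in place of 0. With DESeq2 alone, ALT against DPBS in H1437-1 gave 2 in place of 1, and in H1437-2 Aeg-S/L against DPBS gave 3 in place of 1 and Aeg-S/L with Tra against DPBS 1 in place of 0. With no filter alone, Aeg-S against DPBS and Tra against Aeg-S/L in H1437-2 gave 1 each in place of 0.

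In no experiment did every same-numbered pair of libraries correlate above 0.1, so the numbers were not taken to pair them. The correlations ran from -0.723 to 0.647, and between ALT with Tra and DPBS in H1437-1 all 3 were high, at 0.391 to 0.639. With the replicate number as a block, MYC with BAPTA-AM in H292-2 was -0.297 (adjusted p = 0.00408), and no MYC or Myc call changed where the block was run. It was not run for the treated groups of IL33KO2, whose lysenin and PlyA2EryB libraries carry no numbers, nor for the untreated lines. Depth was 29.6 M assigned reads or more per library, and the lowest Myc level was 2.61 CPM in Lung4.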
